A study of Mus musculus with 4 samples.

Results

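The regions described are adult FOXA2 intervals that came in groups, were not listed at postnatal day 12 and lay outside domains of elongating RNA polymerase. They were chosen by a rule on position. Each is an interval of the adult FOXA2 list that overlaps no FOXA2 interval of postnatal day 12 and no polymerase domain of either stage, and whose centre lies within 10 kb of the centre of another adult FOXA2 interval. Of 10373 adult FOXA2 intervals, 1621 (15.6%) met the rule and are called members here. Another 6195 intervals also lay outside the polymerase domains and were absent from the postnatal list, but had no neighbour within 10 kb. They are called isolated and serve as the nearest comparison.

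Chromatin immunoprecipitation and sequencing was done on whole uterus of female mice at 2 stages, with 1 library for each antibody and stage. The adult stage was pseudopregnancy, the hormonal state after a sterile mating, and days 2.5 and 3.5 of it are named together on each adult library. The younger stage was postnatal day 12 (PD12), when the uterine glands are forming. One antibody was to FOXA2, and the other recognised the C-terminal repeat of RNA polymerase II in its form phosphorylated on serine 2 (POL2). The labels give no strain or genotype and do not say how the days were pooled. The adult lists held 10373 FOXA2 and 14818 POL2 intervals, against 814 and 9972 at PD12. The lists hold positions alone, with no height, score or read count, so the depth of every library is unknown. With 1 library a group there was no test between groups. Exact (Clopper-Pearson) 95% binomial intervals are given for shares, and they cover counting error only, since intervals of a list share their library. They also treat neighbours as independent. Most members come in pairs, so the limits of shares over members are too narrow.

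FOXA2 is a forkhead transcription factor that can bind its sites in closed chromatin, and in the mouse uterus it is a factor of the glandular epithelium, needed for gland formation and for the secretions that allow an embryo to implant. Binding sites of such factors often lie in groups over enhancers, which can be far from the gene they act on. The serine 2 form of the polymerase travels along gene bodies during elongation, so the POL2 domains mark transcribed stretches. In whole uterus a FOXA2 interval and a POL2 domain need not come from the same cells. Fewer cells with FOXA2 and less binding per cell cannot be told apart, at either stage. An annotation and a sequence of the files' own build were not used here, so the gene, exon or intron at each region is not stated. Positions are as in the files, with chromosome, start and end.

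Most members belonged to a pair of FOXA2 intervals with no other near. When adult intervals with centres up to 10 kb apart were joined, members fell into 865 clusters, which held 1867 adult FOXA2 intervals in all. Pairs made up 747 of these clusters (86.4%), 102 held 3 intervals, 13 held 4 and 3 held 5. The median distance from the first to the last centre was 4.64 kb in pairs (interquartile range 2.37 to 6.92), 8.89 kb in clusters of 3 (6.89 to 12.1) and 12.3 kb in clusters of 4 (8.73 to 16.7). For 1522 members (93.9%) the relation was mutual, in that each was also the nearest adult interval of its own nearest neighbour. Together the members covered 1.12 Mb, or 14.7% of the bases in the adult FOXA2 list.

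Clustering was about as frequent outside POL2 domains as elsewhere in the adult list. A neighbour within 10 kb was present for 20.7% (19.8 to 21.7) of adult-only intervals outside POL2, 23.3% (21.5 to 25.3) of adult-only intervals in a POL2 domain, and 20.1% (17.0 to 23.6) of adult intervals also listed at PD12. Over the whole adult list it was 21.2%, and since the rule used this property nothing is read from the members' share. In the much shorter PD12 list 34 of 814 intervals (4.18%, 2.91 to 5.79) had a PD12 neighbour within 10 kb. The adult and PD12 lists differ in length by themselves, so this does not show that binding was less grouped at PD12.

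Within clusters, neighbours were most often 1 to 1.5 kb apart. The median distance from a member's centre to the nearest adult centre was 4.29 kb (interquartile range 2.12 to 6.69). In steps of 0.5 kb, 155 members lay 1 to 1.5 kb from their nearest neighbour, 122 lay 1.5 to 2 kb and 107 lay 2 to 2.5 kb away, while 47 lay 9.5 to 10 kb away. Beyond the 10 kb limit the count of isolated intervals per 0.5 kb was between 30 and 71 up to 20 kb, so the threshold cut through a gradual decline and not through a gap. Distances below 1 kb were held by 106 members (6.54%), a range in which neighbours can only be separate if they are narrow. Short distances were frequent in the other clustered classes as well. Neighbours 1 to 2 kb away made up 17.1% (15.3 to 19.0) of members, 20.9% (17.2 to 24.9) of clustered adult-only intervals in POL2 domains and 12.7% (7.29 to 20.1) of clustered intervals shared with PD12.

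**Figure D1:**
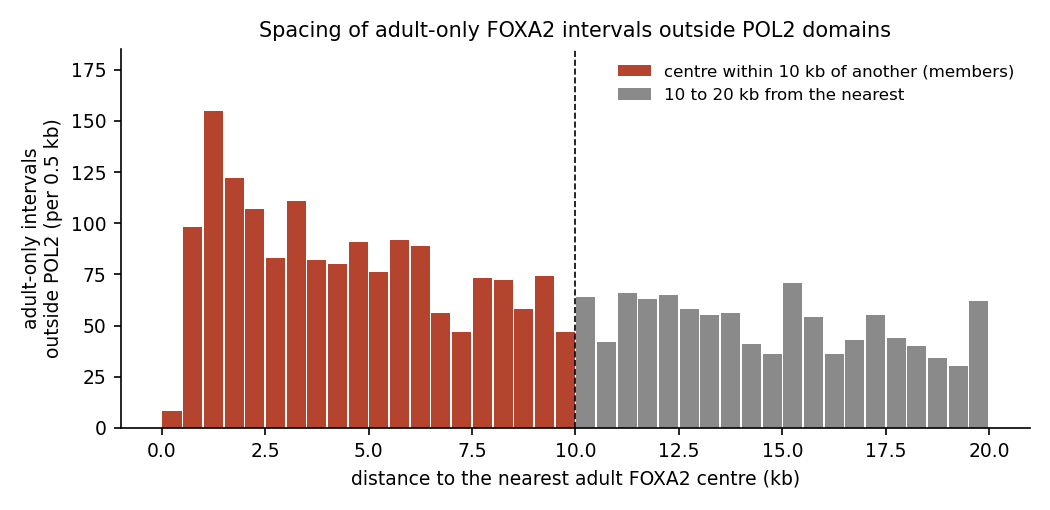
Number of adult-only FOXA2 intervals outside POL2 domains by distance from their centre to the nearest adult FOXA2 centre (kb, steps of 0.5 kb), in the adult library. Red bars are members, grey bars are isolated intervals up to 20 kb, and the dashed line is the 10 kb limit of the rule; the highest bar, 155 intervals, is at 1 to 1.5 kb.

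The pairs with the closest centres were separated by few bases. At chromosome 1, 61783158 to 61783536 and 61783557 to 61783902 lay with centres 382.5 bp apart and 20 bp between their ends. On chromosome 14, 75614802 to 75615209 and 75615221 to 75615631 were 11 bp apart, and on chromosome 10, 34230804 to 34231412 and 34231425 to 34231774 were 12 bp apart. The next pairs by centre, at chromosome 1, 163187782 to 163188707, and chromosome 14, 48453317 to 48454406, had 38 and 78 bp between their ends. Wider intervals can lie closer end to end with their centres farther apart, as at chromosome 19, 41903242 to 41904000 and 41904005 to 41904679, where 4 bp separated the members. Such pairs would be read as a single region under a looser joining of signal, and in total 43 members (2.65%) had under 100 bp to their neighbour and 148 (9.13%) under 500 bp. At the other end, the members nearest the limit were the pair at chromosome 11, 68678248 to 68678781 and 68688107 to 68688891, with centres 9984.5 bp apart, and an interval at chromosome 3, 27181911 to 27182693, at 9979.5 bp. Just outside it lay chromosome 5, 64225089 to 64225636, whose nearest centre was 10000.5 bp away. Chromosome 17, 16140870 to 16141494, followed at 10047 bp and chromosome 9, 61319589 to 61320126, at 10050 bp.

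The most members in a cluster was 4, reached by 11 clusters, and the 10 shortest of these are described first. The tightest was at chromosome 13, 113101743 to 113106182, where 4 intervals of 695, 745, 737 and 714 bp lay within 4440 bp, with the nearest adult POL2 domain 21.2 kb away and the nearest PD12 one 167.0 kb away. At chromosome 2, 106661987 to 106670360, 4 members of 611 to 940 bp lay in 8374 bp, and this cluster was the farthest of the 10 from adult polymerase, with 858.6 kb to an adult domain and 858.0 kb to a PD12 one. Chromosome 9, 120250571 to 120260082, and chromosome 3, 120888005 to 120897468, had 4 members each within 9512 and 9464 bp, and were 140.3 and 96.3 kb from adult POL2. The cluster at chromosome 10, 40230549 to 40243981, was closer to the adult domains (17.9 kb) than to those of PD12 (158.0 kb). At chromosome 12, 81928236 to 81945561, the gaps were 14.2 kb to adult and 34.0 kb to PD12 polymerase. The longest of the 10, at chromosome 10, 96184912 to 96207983, spread its 4 members over 23.1 kb, and POL2 was 95.5 kb away in the adult and 89.7 kb at PD12.

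Of these 10 clusters, 2 also held an adult-only interval in an adult POL2 domain, and so did the remaining cluster of 4 members, at chromosome 9, 69900621 to 69925407 (24.8 kb). At chromosome 13, 118003993 to 118022806, that domain spanned 118019200 to 118021199 (2000 bp) and the nearest PD12 domain was 2123 kb away. At chromosome 9, 3023088 to 3036721, the domain spanned 3034000 to 3036599 (2600 bp). Another member pair lay before it, beginning at 2999887, which is the lowest start in the whole adult FOXA2 list, so 6 members sat in the first listed 36.8 kb of chromosome 9. These intervals were not checked for repeated sequence. The cluster at chromosome 3, 101670760 to 101689530, had a PD12 FOXA2 interval of 228 bp between its members, at 101679274 to 101679501, which overlapped no adult interval and ended 1010 bp before the second member.

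**Figure D2:**
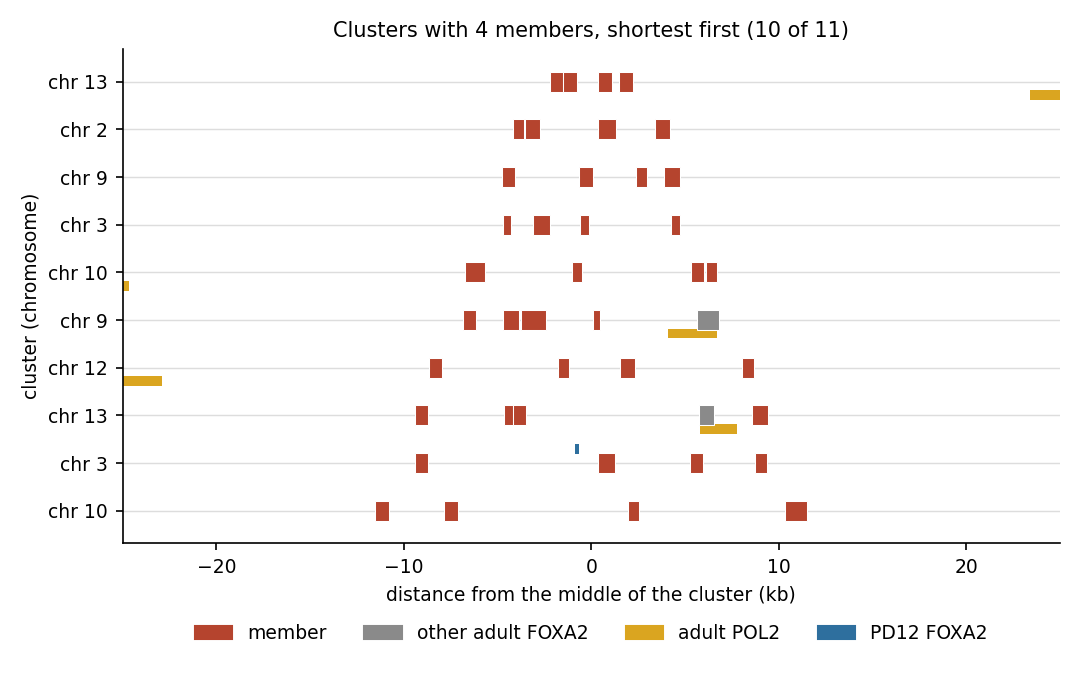
The 10 shortest of the 11 clusters with 4 members, one line each with its chromosome, over 25 kb to either side of the middle of the cluster. Red blocks are members, grey blocks other adult FOXA2 intervals, gold blocks adult POL2 domains and the blue block a PD12 FOXA2 interval, all to scale along the axis; no PD12 POL2 domain lay in these windows, and adult POL2 overlapped a FOXA2 interval in 2 of the 10 clusters.

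Members made up 1621 of 2199 clustered adult intervals (73.7%). Adult-only intervals outside POL2 were 75.3% of the whole adult list, so this share is close to that of their class. Most members had only other members in their cluster. Clusters made of members alone numbered 649 of 865 and held 1371 members (84.6%, 82.7 to 86.3). A further 157 clusters also held an adult interval in a POL2 domain, 78 held one shared with PD12, and 19 of these held both. The nearest adult neighbour of a member was another member in 1412 cases (87.1%, 85.4 to 88.7), an adult-only interval in a POL2 domain in 133 (8.20%) and an interval shared with PD12 in 76 (4.69%). By the rule, any adult-only neighbour outside POL2 within 10 kb is itself a member. As that class is 75.3% of the adult list, the 84.6% and 87.1% follow in part from its size. Over all clustered adult intervals the nearest neighbour was of that class in 73.3%, and it was in 27.4% (23.4 to 31.7) of clustered adult-only intervals in POL2 domains and 61.9% (52.5 to 70.6) of clustered intervals shared with PD12. Among the clusters of members alone, a POL2 domain lay in the space between 2 FOXA2 intervals in 10 cases, from the adult list in 7, from the PD12 list in 5 and from both in 2. The remaining clusters of members alone contained no listed polymerase at either stage, but the rule largely sets this. Members overlap no domain, so only a domain that fits whole between 2 of them can lie in such a cluster. The median gap from a member to its neighbour was 3601 bp, while POL2 domains had median widths of 4800 bp in the adult and 5400 bp at PD12.

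Members were only slightly wider than isolated intervals and clearly narrower than adult intervals in POL2 domains. Overlap with another list is met more readily by a wide interval, so these classes are not independent of width. The median width was 671 bp in members (interquartile range 554 to 777) and 645 bp in isolated intervals (536 to 762), a difference far inside the spread of either class. Clustered adult-only intervals in POL2 domains had a median of 838 bp (682.5 to 1099), and clustered intervals shared with PD12 one of 851.5 bp (669.5 to 980). Among adult-only intervals in POL2 domains the median was 838 bp for clustered and 856 bp for isolated ones, and among intervals shared with PD12 it was 851.5 bp for clustered and 796 bp for isolated ones. Widths of 1000 bp or more were held by 103 members (6.35%, 5.22 to 7.65), 145 clustered adult-only intervals in POL2 domains (31.5%, 27.3 to 36.0) and 332 isolated intervals (5.36%, 4.81 to 5.95), with 11.7% over the whole adult list. Width hardly varied with the distance to the neighbour. It was 671.5 bp in the median for neighbours 1 to 2.5 kb away, 676 bp for 2.5 to 5 kb, 672 bp for 5 to 7.5 kb and 672.5 bp for 7.5 to 10 kb, and 607.5 bp below 1 kb, where there is little room for wide intervals. Width varied more with the gap to adult POL2, to which members lay nearer. At 1 to 5 kb the medians were 683 bp in members and 702.5 bp in isolated intervals. At 100 kb or more they were 654 and 619 bp. Only at 1 to 5 kb was the member median the smaller one.

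**Figure D3:**
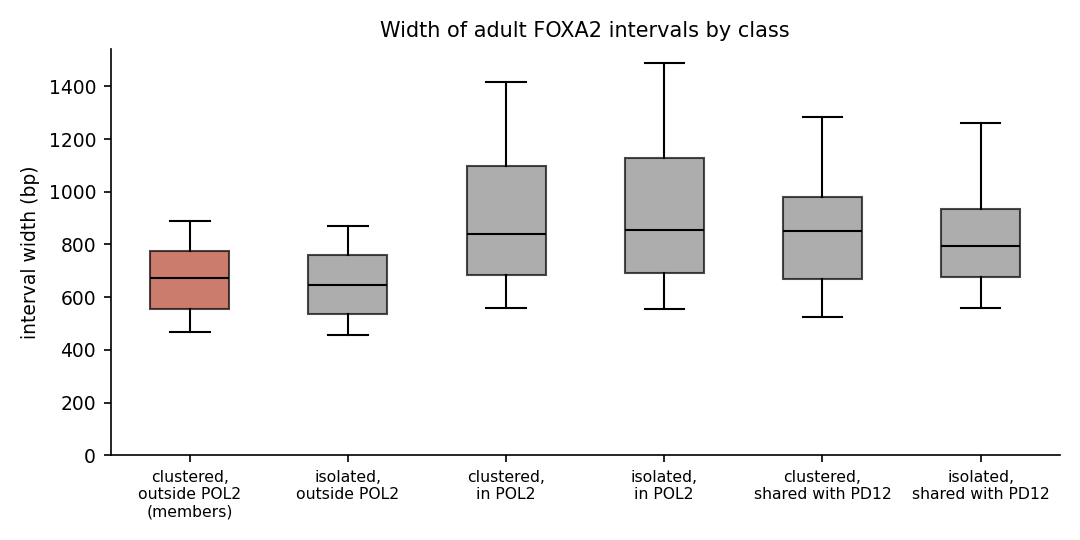
Width (bp) of adult FOXA2 intervals in 6 classes, with the median as a line, the interquartile range as a box and the 10th to 90th percentiles as whiskers. Members are the red box at the left; the median is 671 bp there and 645 bp in isolated intervals, while the classes in POL2 domains or shared with PD12 have medians of 796 to 856 bp.

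Partners within a cluster were not strongly matched in width. Over 748 pairs of adjacent members the wider interval was 1.28 times the narrower in the median (interquartile range 1.12 to 1.52), and in 50 pairs (6.68%) it was over 2 times as wide. Spearman's rho between the widths of partners, with each pair entered in both orders, was 0.09, a description over pairs from a single library. A member with a member on either side enters 2 pairs. In mixed pairs with a partner in a POL2 domain, the member was usually the narrower interval. A wide interval overlaps another list more readily, so width and the rule are linked. Where the partner lay in a POL2 domain and was adult-only, the partner was wider in 76 of 106 pairs (71.7%, 62.1 to 80.0), with medians of 657 bp for members and 818.5 bp for partners. Where the partner was shared with PD12, it was wider in 36 of 57 pairs (63.2%, 49.3 to 75.6), with medians of 662 bp for members and 808 bp for partners. The limits of that share include an even split.

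The widest member was at chromosome 11, 68935456 to 68939145 (3690 bp), paired with a member of 971 bp at 68931780 to 68932750. Polymerase lay 10.3 kb from the wide interval in the adult and 9.66 kb from it at PD12. The next widest, at chromosome 5, 125884220 to 125886978 (2759 bp), was paired with a member of 1329 bp. At chromosome 8, 129356288 to 129358431 (2144 bp), the partner was an interval of 1453 bp that was also listed at PD12, and POL2 was 88.4 kb away in the adult and 84.6 kb away at PD12. Members of 1984 bp at chromosome 1, 173031655 to 173033638, of 1870 bp at chromosome 2, 26299830 to 26301699, and of 1653 bp at chromosome 13, 23654074 to 23655726, each had a narrower partner in an adult POL2 domain. The other 4 of the 10 widest lay in pairs of members alone. Of these, 2 were on chromosome 19, with 1938 bp at 21180534 to 21182471 and 1662 bp at 12085296 to 12086957. Chromosome 3 had 1861 bp at 96304069 to 96305929, and chromosome 10 had 1764 bp at 96148466 to 96150229.

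Members lay nearer to POL2 domains than isolated intervals did, and at short range the rule itself contributes to this. It admits members with a neighbour in a POL2 domain and bars such neighbours from the isolated class. Clusters of members alone are therefore given as well. Every interval in them had to lie outside POL2, which in turn lowers their share at short range. The median gap to the nearest adult domain was 51.5 kb for members (interquartile range 14.0 to 155.4) and 81.3 kb for isolated intervals (26.6 to 229.9). For members in clusters of members alone it was 62.7 kb. To PD12 domains, of which fewer were listed, the medians were 78.9 kb for members and 113.0 kb for isolated intervals. In clusters of members alone the median was 95.2 kb. An adult domain lay within 10 kb of 324 members (19.99%, 18.1 to 22.0) and 680 isolated intervals (11.0%, 10.2 to 11.8), with 12.8% over all adult-only intervals outside POL2. In clusters of members alone the share was 11.3% (9.68 to 13.1), close to that of isolated intervals. Within 5 kb the shares were 10.6% of members, 4.23% of members in clusters of members alone and 5.31% of isolated intervals. Since the choice of these clusters used POL2, their short-range shares do not show whether clustering goes with nearness to polymerase. A PD12 domain lay within 10 kb of 12.0% (10.5 to 13.7) of members, 6.49% (5.25 to 7.93) of members in clusters of members alone and 7.31% (6.68 to 7.99) of isolated intervals, against 8.29% over all. Farther out the values were as follows. An adult domain lay within 50 kb of 49.8% (47.4 to 52.3) of members, 44.6% (41.9 to 47.2) of members in clusters of members alone and 37.7% (36.5 to 38.9) of isolated intervals. For PD12 domains these shares were 38.2% (35.8 to 40.6) of members, 32.9% (30.4 to 35.5) of members in clusters of members alone and 30.5% (29.3 to 31.6) of isolated intervals. Members of a cluster share most of their surroundings, so the intervals understate the error and no difference was tested.

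**Figure D4:**
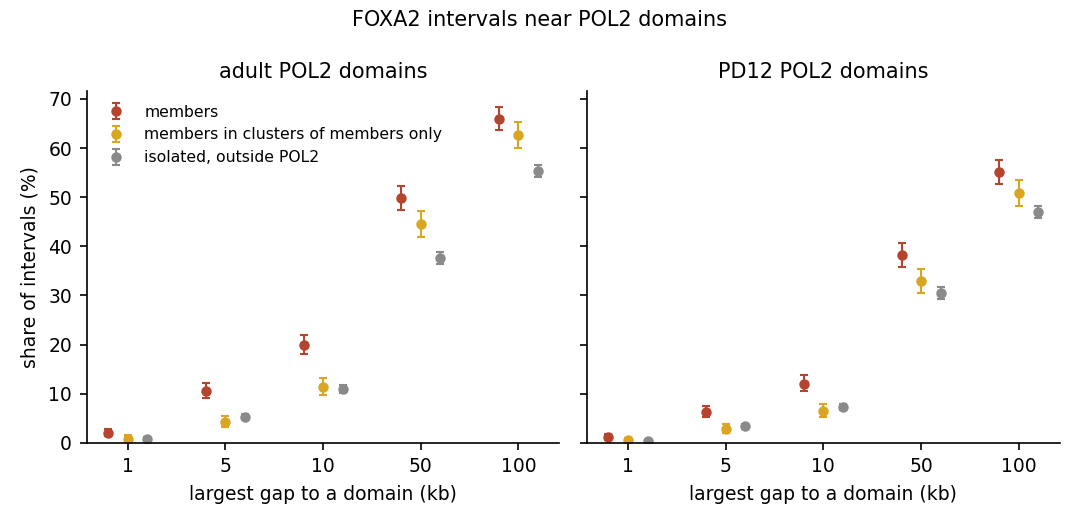
Share (%) of FOXA2 intervals with a POL2 domain within 1, 5, 10, 50 and 100 kb, for adult domains (left) and PD12 domains (right), with exact 95% binomial intervals. Red points are members, gold points members in clusters of members alone and grey points isolated intervals; at 10 kb from adult domains they stand at 19.99%, 11.3% and 11.0%.

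Polymerase around members was more often listed in the adult than at PD12. In windows of 50 kb to either side of the centre, adult POL2 was present for 804 members (49.6%, with 40.0% over all adult-only intervals outside POL2) and PD12 POL2 for 618 (38.1%, with 31.9% over all). For members in clusters of members alone these shares were 44.3% and 32.8%. Clusters that hold an interval in a POL2 domain bring polymerase near members by the rule, and leaving them out lowers these shares. Windows with adult and no PD12 polymerase were found at 15.7% of members and 11.0% of isolated intervals, and windows with PD12 and no adult polymerase at 4.19% of members and 3.76% of isolated intervals. Adult coverage was greater than PD12 coverage around 642 members (39.6%), with 30.3% over all, and less around 226 (13.9%). The mean coverage around members was 6.03 kb in the adult and 4.00 kb at PD12, a ratio of 1.51. Around members in clusters of members alone it was 4.76 kb in the adult and 3.06 kb at PD12, a ratio of 1.555. Around isolated intervals it was 4.29 kb in the adult and 3.16 kb at PD12, a ratio of 1.36, and over the whole lists the ratio of covered bases was 1.35. No listed polymerase of either stage lay in the window of 749 members (46.2%, 43.8 to 48.7) and of 3638 isolated intervals (58.7%, 57.5 to 60.0). In clusters of members alone this held for 711 members (51.9%, 49.2 to 54.5). Where an adult domain lay within 50 kb, the nearest was absent from the PD12 list for 53.7% (50.2 to 57.2) of members and 49.0% (47.0 to 51.1) of isolated intervals, while 45.6% of all adult domains were. Here too neighbouring members share most of their window.

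FOXA2 of PD12 was near few members, and then through the cluster itself. A PD12 FOXA2 interval lay within 10 kb of 92 members (5.68%, 4.60 to 6.92) and 28 isolated intervals (0.452%, 0.301 to 0.653), with 1.54% over all adult-only intervals outside POL2. Of the 92 members, 86 lay in a cluster with an adult interval shared with PD12, and in clusters without one the share was 0.392% (0.144 to 0.851). The part of the rule on neighbours admits such clusters to the members and bars them from the isolated class. Of 814 PD12 intervals, 85 had a member within 10 kb, and 81 of those 85 overlapped an adult interval. The member closest to a PD12 interval, singled out after its value was seen, was at chromosome 3, 9665195 to 9665753, with 179 bp between them. Farther out, a PD12 interval lay within 100 kb of 16.3% (14.5 to 18.2) of members, 11.1% (9.47 to 12.9) of members in clusters of members alone and 10.2% (9.43 to 10.9) of isolated intervals.

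Members were found on every one of the 20 chromosomes listed. The clustered share of adult-only intervals outside POL2 ranged over the autosomes between 13.7% (10.7 to 17.1) on chromosome 4 and 26.0% (21.1 to 31.4) on chromosome 15. Chromosome 13 had the most members, 124 in 62 clusters (25.3%, 21.5 to 29.4), followed by chromosome 2 with 123 and chromosome 3 with 121. Chromosome 1 had 84 members among 556 such intervals (15.1%, 12.2 to 18.4). On the X chromosome 13 of 117 were members (11.1%, 6.05 to 18.3), against 20.9% (19.98 to 21.8) on the autosomes together. Intervals lying close together raise this share by the rule itself, and the number of intervals per base was not compared because chromosome lengths of the files' build were not used here.

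**Figure D5:**
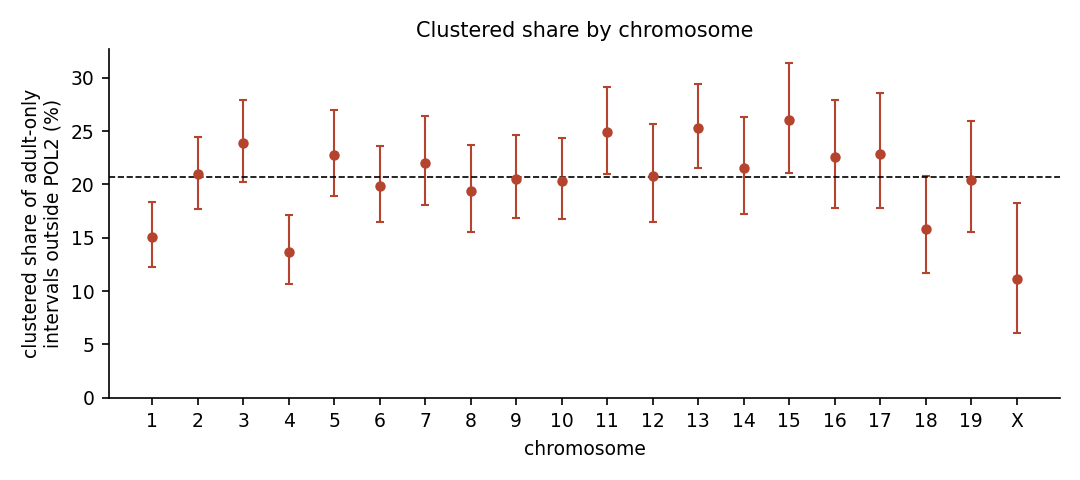
Share (%) of adult-only FOXA2 intervals outside POL2 that are members, for each chromosome, with exact 95% binomial intervals; the dashed line is the share over all chromosomes, 20.7%. The lowest points are chromosome X at 11.1% and chromosome 4 at 13.7%, and the highest is chromosome 15 at 26.0%.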

How the data were processed

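Per the file headers, each deposited list gives the chromosome, start and end of intervals called in 1 library, and no other values. Per the submitters' processing notes BWA was used, with no version named. Which build, peak caller and threshold applied, and whether input DNA entered the calls, is not stated there. Across the 4 lists, 260 intervals lay beyond the last gene of the GRCm38 table at hand, 9 members among them, so its positions and promoter sequences were not applied.

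Width was end minus start plus 1, the centre the mean of start and end, and a gap the bases between facing ends. Overlap meant at least 1 bp. Clusters were joined by single linkage of centres up to 10 kb apart. The rule was tested on simulated lists. Named regions were the 10 clusters with the most members (ties broken by the shorter span), the 10 widest members, the 5 closest member pairs and the 3 intervals on either side of the limit. The members and these rules were chosen with earlier results of these data known. The planned gene names and forkhead motif search need the files' build and were not run. Alternatives changed the linking distance, both overlap rules and the set of intervals used. Python 3.11.15, numpy 2.4.6, pandas 2.3.3, scipy 1.17.1 and matplotlib 3.10.9 were used.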

Additional observations from a re-analysis of the deposited data

How the results depend on the processing

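Over 5 results and 9 alternatives, 31 of 45 values kept inside the main value's 95% interval, or inside 1.5 times for the number of members, and 14 moved outside; none of the 5 results has a direction that could reverse. The number of members, 1621, was 937 with centres within 5 kb, 2636 within 20 kb and 447 in the 50% widest adult intervals, as fewer or more neighbours then qualify. The median width, 671 bp, was 785 bp in the 50% widest intervals, which is set by that selection. The share of members whose nearest neighbour was a member, 87.1%, was 89.6% with centres within 5 kb, 84.3% within 20 kb, 83.9% in the 50% widest intervals and 89.6% when PD12 overlap had to cover 50% of both intervals. The share in a cluster with an interval in a POL2 domain, 11.1%, was 7.36% within 5 kb, 16.2% within 20 kb and 14.3% in the 50% widest. The share in a cluster with an interval shared with PD12, 5.55%, was 6.79% within 20 kb, 7.16% in the 50% widest and 1.79% with 50% of both covered, where fewer adult intervals count as shared. Beyond what is stated, the cause was not tested. With adult intervals merged across gaps of up to 500 bp, an alternative chosen after the data were seen, 1488 intervals met the rule. No paired analysis was possible because no group had more than 1 library. Unknown depth and threshold limit every count, since a longer list brings intervals closer together.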

Other observations

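Clusters with members were linked where at most 100 kb separated them, a distance chosen after the data were seen, to find where they lie side by side. Of 865 clusters, 138 (16.0%, 13.6 to 18.6) had another within that gap, and they formed 64 stretches, of which 56 held 2 clusters, 7 held 3 and 1 held 5. Isolated intervals lay 56375 bp in the median from the nearest adult centre, so neighbours at this range are common in the list. The share was not compared with other classes and is a description alone. The stretch of 5 clusters was at chromosome 13, 23537573 to 23779438 (241.9 kb). It held 7 members among 14 adult FOXA2 intervals, 1 of them shared with PD12, with 29.8 kb of POL2 in the adult and 37.4 kb at PD12.

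Of the 64 stretches, 30 held no listed polymerase of either stage and 34 held some. At chromosome 3, 30898184 to 31006909 (108.7 kb), 7 of 8 adult FOXA2 intervals were members, with 9.4 kb of POL2 in the adult and 4.8 kb at PD12. Among stretches with none, chromosome 3, 67636663 to 67703617, had 7 adult FOXA2 intervals in 67.0 kb, all of them members, chromosome 16, 97814336 to 97881385, had 6 members in 67.1 kb, and chromosome 10, 96148466 to 96207983, had 6 in 59.5 kb. At chromosome 19, 21105170 to 21222789 (117.6 kb), also without polymerase, 6 of 7 adult FOXA2 intervals were members and the other was shared with PD12. At chromosome 3, 100563335 to 100686668, 6 members lay in 123.3 kb with 8.2 kb of POL2 in the adult and none at PD12. These regions were chosen after their values were seen, and no explanation was tested.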
